A study of Homo sapiens with 14 samples.

Results

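The 9 genes described here build and load MHC class I molecules, and their levels were read on 14 human transcriptome arrays of U87MG, an established human glioblastoma cell line. They are HLA-B and HLA-C, B2M, TAP1 and TAP2, TAPBP, ERAP1 and ERAP2, and NLRC5, out of 22465 genes that the array annotation names as the single gene of a transcript cluster (the group of probes that reports 1 transcribed locus). A cluster was taken for a gene when its annotation held that 1 symbol alone, and among several such clusters the one with the highest mean over the 14 arrays stood for the gene. All 9 genes had at least 1 such cluster.

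There were 3 arrays of gliospheres that had received medium conditioned (CM) by mesenchymal stem cells from Wharton's jelly (WJT), 3 that had received CM of such cells from bone marrow (BMT), 3 of untreated gliospheres, 2 of negative spheres and 3 of the cultured cell line. Gliospheres are spheroids grown without attachment in a serum-free neural medium with EGF, bFGF, LIF, N2 and B27, from U87MG cells sorted for the surface marker CD133. At passage 13 the treated ones received CM for 7 days. Negative spheres are labelled as spheroids of glioma cells that are not stem cells. The study describes its negative control as the CD133-negative sorted fraction, which ceased to form spheres after early passages. The cell line arrays are labelled as U87MG without any treatment. The study set negative control and cell line together against gliospheres, so the 5 arrays are called the control group here. Negative spheres and cell line are also each set against gliospheres alone. All groups descend from this 1 cell line, so the replicates differ in culture and in the mesenchymal cells that conditioned the medium, not in the tumor of origin. Sphere arrays are labelled as biological replicates, whereas those of the cell line carry only a number, so the spread between the cell line arrays may be technical. The p-values of the main fits rest on a spread estimated over all groups together, the cell line arrays included.

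MHC class I molecules show peptides from inside the cell to CD8 T cells. A heavy chain such as HLA-B or HLA-C pairs with the light chain beta-2 microglobulin (B2M) in the endoplasmic reticulum. Peptides cut by the proteasome are pumped in by the TAP1 and TAP2 transporter, trimmed at their front end by the aminopeptidases ERAP1 and ERAP2, and loaded with the help of tapasin (TAPBP). NLRC5 is a nuclear protein that switches on class I genes, and interferons raise the whole set in most cell types.

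The start regions of these genes are shown first, because those of HLA-B and HLA-C are alike and because motifs for interferon and NF-κB responses sit in them. Most of each window lies before the transcription start, so its likeness does not bear on whether the array separates HLA-B from HLA-C. RefSeq windows from 250 bases before to 50 bases after the transcription start (GRCh38.p14) were found for 8 of the 9 genes, and the bases up to 25 after the start are printed here, 5′ to 3′ in the direction of the gene. Capitals mark matches on either strand to 2 copies of GAAA with any 2 bases between them (the core of the interferon-stimulated response element), TTCNNNGAA (the interferon gamma-activated sequence), GGGGA and TCCC with any base between them (an NF-κB site of the class I enhancer), CCAAT or TGACGTCA (the cyclic AMP response element). The pair of heavy chains comes first (HLA-B at chr6:31357155-31357429 and HLA-C at chr6:31272068-31272342, both minus strand), then the steady light chain (B2M at chr15:44711267-44711541, plus strand), then both aminopeptidases (ERAP1 at chr5:96807921-96808195, minus strand, and ERAP2 at chr5:96876250-96876524, plus strand), whose levels set the treated arrays apart from untreated gliospheres.
HLA-B: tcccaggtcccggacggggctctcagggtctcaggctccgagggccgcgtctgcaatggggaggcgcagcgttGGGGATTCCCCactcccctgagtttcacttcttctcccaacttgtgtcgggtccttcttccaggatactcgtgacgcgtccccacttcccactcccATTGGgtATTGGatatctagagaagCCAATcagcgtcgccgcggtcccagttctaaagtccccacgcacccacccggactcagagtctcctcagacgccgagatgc
HLA-C: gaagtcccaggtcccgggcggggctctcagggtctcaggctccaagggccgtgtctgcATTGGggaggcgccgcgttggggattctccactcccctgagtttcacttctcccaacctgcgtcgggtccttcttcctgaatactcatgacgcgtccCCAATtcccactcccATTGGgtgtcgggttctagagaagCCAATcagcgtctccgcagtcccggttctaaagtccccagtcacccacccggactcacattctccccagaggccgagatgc
B2M: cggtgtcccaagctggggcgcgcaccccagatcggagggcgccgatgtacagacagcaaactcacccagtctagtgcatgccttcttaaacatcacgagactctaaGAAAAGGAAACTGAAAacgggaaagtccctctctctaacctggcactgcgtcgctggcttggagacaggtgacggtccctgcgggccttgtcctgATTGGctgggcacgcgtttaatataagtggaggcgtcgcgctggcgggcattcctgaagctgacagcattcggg
ERAP1: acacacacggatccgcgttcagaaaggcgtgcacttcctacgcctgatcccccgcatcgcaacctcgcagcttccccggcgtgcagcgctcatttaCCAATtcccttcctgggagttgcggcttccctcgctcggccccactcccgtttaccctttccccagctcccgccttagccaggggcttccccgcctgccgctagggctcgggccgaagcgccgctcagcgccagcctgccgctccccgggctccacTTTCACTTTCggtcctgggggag
ERAP2: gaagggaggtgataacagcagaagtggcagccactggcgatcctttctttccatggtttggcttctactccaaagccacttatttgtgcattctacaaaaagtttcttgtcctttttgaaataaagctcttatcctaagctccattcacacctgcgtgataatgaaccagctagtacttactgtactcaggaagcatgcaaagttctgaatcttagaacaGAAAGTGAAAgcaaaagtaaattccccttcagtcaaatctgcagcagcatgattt

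The HLA-B and HLA-C windows were identical at 269 of 304 aligned positions (88.5%), whereas the other 27 pairs of genes shared between 44.7 and 52.0% of positions. The interferon element core lay in the windows of 6 of these 8 genes (B2M, TAP1, TAP2, TAPBP, ERAP1 and ERAP2), and in 3.57% of all 35116 RefSeq windows. HLA-B held the NF-κB site on both strands at overlapping positions, a match found in 0.424% of windows, and these exact letters were not in the HLA-C window. CCAAT was found for 5 of the 8 genes (34.6% of all windows), the gamma-activated sequence for TAP1 alone (7.66%), and the cyclic AMP element for none (1.85%). The interferon element matches of B2M, TAP1 and TAPBP were pairs that overlapped each other. ERAP1, ERAP2 and TAP1 each had a further start with a window of its own, and for ERAP1 and ERAP2 the window with a match was the one printed. All of these matches describe letters, not bound sites.

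Levels are log2 signals, so a difference of 1 is a doubling. They can be compared between arrays for the same gene, but not between genes, because probes differ in brightness. The median of all clusters lay between 3.58 and 3.92 on the 14 arrays and the 10th percentile between 2.97 and 3.15. Both upper ends were those of cell line replicate 3, which also held the highest level of 28.5% of all clusters. The next largest share was 11.7%, on cell line replicate 2. Array pairs within WJT and within BMT correlated at 0.990 or more across clusters, whereas the lowest correlation was 0.964 within gliospheres (replicates 1 and 3) and 0.928 within the cell line (replicates 1 and 3). Of 6 stem cell markers, 4 (PROM1, the gene of CD133, MSI1, SOX2 and SOX1) stayed below a log2 signal of 4 on all arrays of every group, so their RNA did not bear on the label of the gliospheres. NES and PAX6 were above 4 on every array. In gliospheres NES lay between 4.13 and 4.53 and PAX6 between 5.36 and 6.10. The means in gliospheres and control were 4.34 and 4.36 for NES, and 5.80 and 5.55 for PAX6. Of the 6 markers, 4 had a lower mean in gliospheres than in control, while 33.9% of all clusters had a higher one. All 6 had a higher mean in WJT and in BMT than in gliospheres, as did 47.0 and 56.5% of all clusters. These counts include the 4 markers below 4, whose differences lie at the low end of the scale. The sort itself was for CD133 protein, which is not read here. All 5 measured leukocyte markers were below 4 on every array, and so were all 3 measured markers of differentiated neural cells. As the RNA came from whole cultures, fewer cells that express a gene and less of its RNA per cell cannot be told apart.

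No member passed the test in any of the 6 comparisons, with 1 exception that depended on a left-out array and is given below for ERAP2. The test was limma with empirical Bayes variances and Benjamini-Hochberg adjustment over all 67528 clusters, and a gene passed at an adjusted p below 0.05. A looser filter joined a fold of 2 or more to an unadjusted p of up to 0.05, and no member met it either. This follows the study's results section, while its methods word the fold threshold as a log2 value, which is stricter. Of all clusters, 0.385% met it as higher and 0.477% as lower in WJT than in gliospheres, 0.278 and 0.832% in BMT, and 0.0666 and 0.0148% in WJT against BMT. For gliospheres the shares were 1.11% higher and 0.524% lower against control, 1.09 and 0.737% against the cell line, and 1.29 and 0.591% against negative spheres. The levels themselves follow by role.

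**Figure D1:**
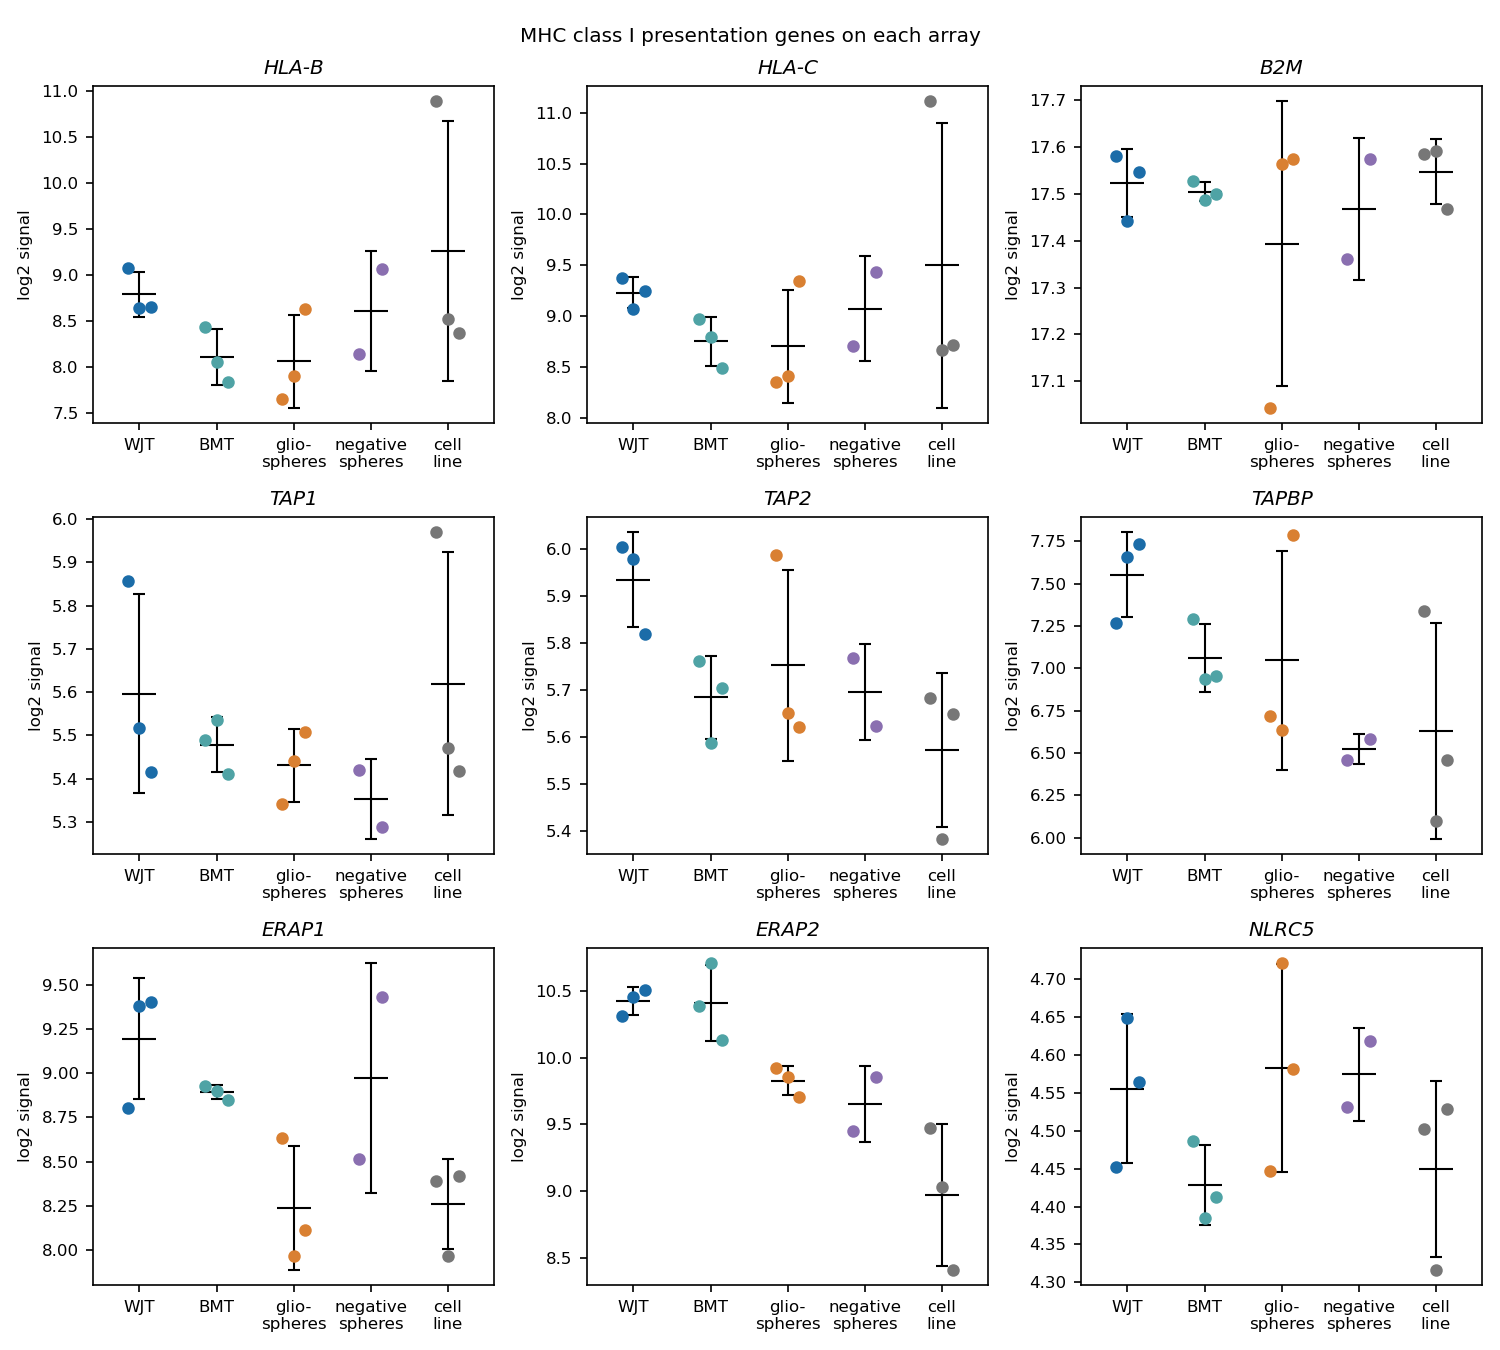
Log2 signal (vertical axis, a separate scale for each gene) of the 9 genes in WJT, BMT, gliospheres, negative spheres and cell line. Points are arrays, bars the mean and SD. All WJT and BMT points of ERAP1 and ERAP2 lie above the 3 gliospheres points, B2M spans 0.55 log2 in all, and cell line replicate 1 stands at 10.89 for HLA-B and 11.11 for HLA-C.

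The classical heavy chains were highest on cell line replicate 1, and their means were higher in WJT than in BMT and lowest in untreated gliospheres when all arrays were counted. HLA-B read 9.07, 8.65 and 8.65 in WJT, 8.44, 8.06 and 7.84 in BMT, and 7.65, 7.90 and 8.63 in gliospheres. It read 8.15 and 9.07 in negative spheres, and 10.89, 8.52 and 8.37 in the cell line. All 3 WJT arrays thus lay above all 3 gliospheres arrays, although only narrowly for gliospheres replicate 3, and above all 3 BMT arrays, while BMT overlapped with gliospheres.

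HLA-C had a similar pattern over the arrays. Its signals were 9.38, 9.07 and 9.25 in WJT, 8.97, 8.79 and 8.49 in BMT, and 8.35, 8.42 and 9.34 in gliospheres. Negative spheres had 8.71 and 9.44, and the cell line 11.11, 8.67 and 8.71. WJT lay above BMT on every array, but overlapped with gliospheres because of gliospheres replicate 3. Ordered by their means, both genes ran from the cell line through WJT, negative spheres and BMT to gliospheres, and each group overlapped with the next in that order. The place of the cell line rested on replicate 1: without it the cell line mean was 8.44 for HLA-B, below WJT and negative spheres (8.61), and 8.69 for HLA-C, just below gliospheres (8.70). The HLA-B mean was 8.79 ± 0.25 in WJT, 8.11 ± 0.31 in BMT and 8.06 ± 0.51 in gliospheres (SD, n = 3 each).

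The size of the heavy chain difference rested on single gliospheres arrays. The log2 difference of WJT over gliospheres was 0.73 for HLA-B and 0.53 for HLA-C with all arrays, 1.01 and 0.85 without gliospheres replicate 3 (adjusted p of 0.993 or more by limma), and 0.52 and 0.35 without gliospheres replicate 1. Replicate 3 also stood apart from gliospheres replicates 1 and 2 for genes typical of mesenchymal cells and fibroblasts, but not all in the same direction. PDGFRB was at 10.50 against 5.79 and 6.60, ENG at 7.91 against 6.47 and 6.48, and COL1A1 at 6.74 against 5.49 and 5.53. DCN (5.42 against 5.12 and 5.01) and LUM (5.24 against 4.15 and 4.64) were higher as well. By contrast, NT5E was lower there, at 16.94 against 18.27 and 18.29. THY1, near the low end of the scale, was also lower (3.11 against 3.35 and 3.26). The part of these genes in the HLA-B, HLA-C and TAPBP signals of replicate 3 was not tested.

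Cell line replicate 1 carried far more heavy chain signal than its fellow arrays. It exceeded the mean of cell line replicates 2 and 3 by 2.45 log2 for HLA-B and by 2.42 for HLA-C, and the next highest of the 14 arrays stood at 9.07 and 9.44. The nonclassical heavy chains HLA-E (9.66, next 8.83), HLA-F (7.18, next 6.51) and HLA-G (5.51, next 5.02) also peaked there. B2M was 2nd highest there (17.58, highest 17.59), whereas the class I-like MICA was 10th and MICB 11th of the 14 arrays. Of the 7 MHC class II genes 0 peaked there. CD74 and HLA-DMA were 2nd highest, however, at 1.97 and 1.55 log2 above the mean of cell line replicates 2 and 3. The other class II genes ranked 5th to 7th. In all, 3 of the 9 members (HLA-B, HLA-C and TAP1) and 4 of 8 loading factors (TAPBPL, CALR, PDIA3 and SEC61A1) had their highest level on this array, which holds the highest level of 6% of all clusters. Of 7 mesenchymal and fibroblast markers, 3 (DCN at 7.47, LUM at 8.21 and ENG at 8.51) had their highest level there, whereas NT5E was only the 10th highest of the 14, and the housekeeping genes GAPDH and ACTB also peaked on this array. Their part in the heavy chain signal was not tested.

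Both heavy chains were read by several clusters, since the array carries the alternative MHC haplotypes of the genome assembly. HLA-B had 6 such clusters, HLA-C 7, TAP1 and TAP2 8 each and TAPBP 5, and the remaining 4 genes 1 each. The clusters of a gene were high and low on the same arrays, with the lowest correlation over the 14 arrays at 0.99 for HLA-B, 0.95 for HLA-C and 0.93 for TAP2. The log2 difference of WJT over gliospheres ran from 0.64 to 0.73 over the HLA-B clusters and from 0.49 to 0.56 over those of HLA-C, so the choice of cluster moved it little. These clusters share probes, and some had identical values (7 clusters of HLA-C gave 6 distinct profiles, 8 of TAP1 gave 4), so they are not independent readings. Across arrays, HLA-B and HLA-C correlated at 0.98, and at 0.92 without cell line replicate 1. The transcripts of related genes can bind each other's probes, so their values are uncertain. Transcript sequences were not compared here, and the part of such binding in the likeness was not tested.

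**Figure D2:**
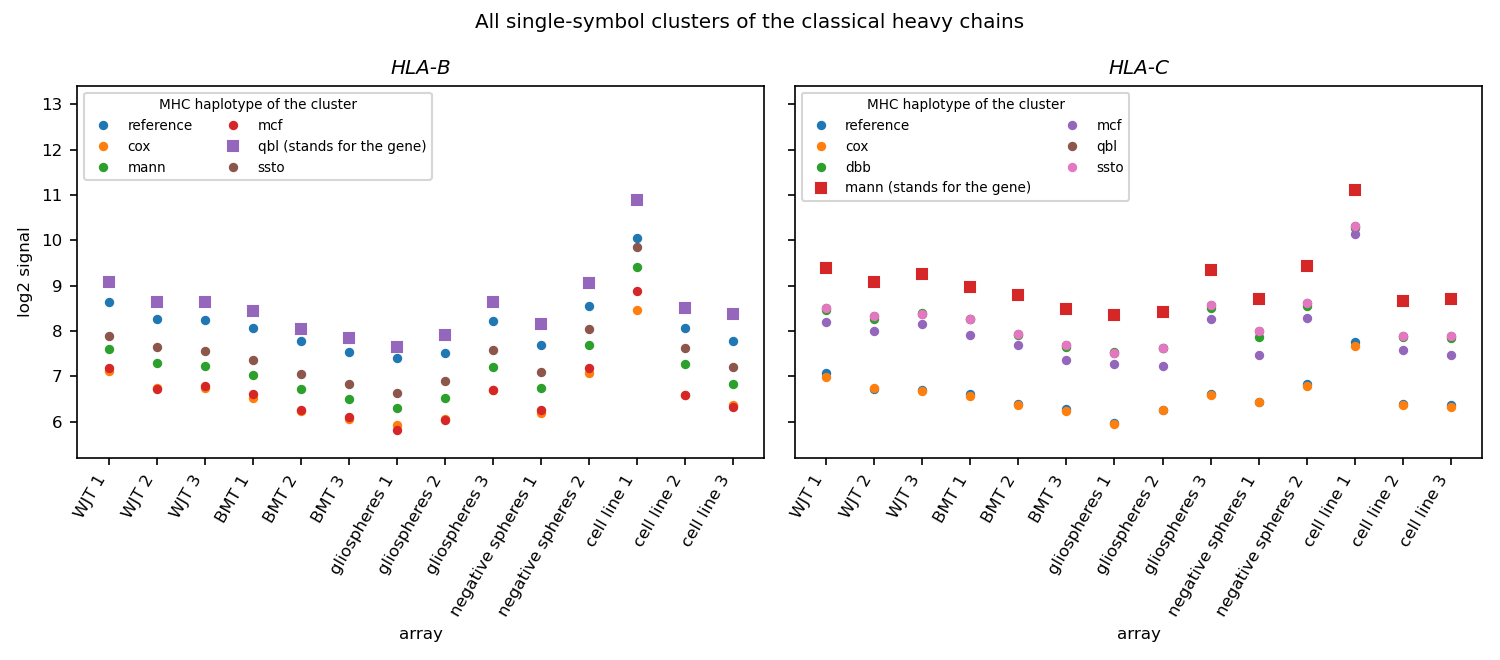
Log2 signal (vertical axis) on each array (horizontal axis) of the 6 HLA-B and 7 HLA-C clusters, coloured by the MHC haplotype they were designed on, with squares for the cluster that stands for the gene. Heights differ between clusters with their probes. The points of cell line replicate 1 are the highest of every cluster.

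The light chain B2M was among the steadiest members. It read 17.58, 17.44 and 17.55 in WJT, 17.53, 17.49 and 17.50 in BMT and 17.04, 17.56 and 17.57 in gliospheres. In negative spheres it was at 17.36 and 17.57, and in the cell line at 17.58, 17.59 and 17.47. Gliospheres replicate 1 was the lowest array, and the groups overlapped throughout, with a whole range of 0.55 log2. The brightest cluster of each array stood between 19.72 and 19.93, and whether B2M probes were close to saturation was not tested. For comparison, the housekeeping genes GAPDH and ACTB differed from gliospheres by -0.15 and -0.02 log2 in WJT and by -0.09 and 0.03 in BMT.

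The subunits of the peptide transporter varied little and correlated only weakly with each other. TAP1 was at 5.86, 5.52 and 5.42 in WJT, 5.49, 5.54 and 5.41 in BMT, and 5.34, 5.44 and 5.51 in gliospheres. It was at 5.42 and 5.29 in negative spheres and at 5.97, 5.47 and 5.42 in the cell line. Apart from cell line replicate 1 and WJT replicate 1, all TAP1 values lay between 5.29 and 5.54. TAP2 read 6.01, 5.98 and 5.82 in WJT, 5.76, 5.59 and 5.70 in BMT, and 5.99, 5.65 and 5.62 in gliospheres, with 5.77 and 5.62 in negative spheres and 5.68, 5.38 and 5.65 in the cell line. TAP2 in WJT lay above BMT on every array, but gliospheres replicate 1 reached into the WJT range. The correlation of TAP1 with TAP2 over the 14 arrays was 0.16, and that of TAP1 with HLA-B was 0.75. Without cell line replicate 1 these values were 0.32 and 0.39, so most of the contrast rested on that array.

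Tapasin (TAPBP), which bridges the transporter to the empty class I molecule, stood at 7.27, 7.66 and 7.73 on the WJT arrays, at 7.29, 6.94 and 6.95 on the BMT arrays and at 6.72, 6.63 and 7.79 on the gliospheres arrays. Negative spheres had 6.46 and 6.59, and the cell line 7.34, 6.10 and 6.46. Gliospheres replicate 3 held the highest value of all arrays and replicates 1 and 2 lay about 1 log2 below it, so the gliospheres mean of 7.05 ± 0.64 (SD, n = 3) lies near none of them. All 3 gliospheres arrays were above both negative spheres arrays. The log2 difference of WJT over gliospheres was 0.51 with all arrays, 0.88 without gliospheres replicate 3 (adjusted p = 0.526 by limma) and 0.30 without gliospheres replicate 2, and all WJT arrays lay above gliospheres replicates 1 and 2.

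Of the members, only the aminopeptidases had every array of both treatments above every untreated gliospheres array. Of all clusters, 7.15% were higher without overlap in WJT (8.43% lower) and 11.2% in BMT (7.33% lower). ERAP1, which trims peptides to the length that fits class I molecules, read 8.80, 9.38 and 9.40 in WJT, 8.93, 8.90 and 8.85 in BMT and 8.63, 7.97 and 8.11 in gliospheres. It read 8.51 and 9.43 in negative spheres and 8.39, 7.96 and 8.42 in the cell line. Every treated array exceeded every untreated gliospheres array and every cell line array, while negative spheres replicate 2 was the highest of all 14. The log2 difference of WJT over gliospheres was 0.96 with a standard error of 0.31 (1.94-fold), with an unadjusted p of 0.0091 and an adjusted p = 0.558 by limma. That of BMT over gliospheres was 0.655 with a standard error of 0.31, and did not reach an unadjusted p of 0.05 by limma.

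In the other direction, ERAP1 was 0.74 log2 lower in gliospheres than in negative spheres (1.67-fold, standard error 0.29), with an unadjusted p of 0.0267 and an adjusted p = 0.511 by limma. The groups overlapped, and the size of this difference rested on 1 array: the value was -0.28 without negative spheres replicate 2 and -1.20 without replicate 1.

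ERAP2, the neighbour of ERAP1 on chromosome 5 that trims a different set of peptides, was at 10.31, 10.45 and 10.51 in WJT, 10.39, 10.71 and 10.14 in BMT and 9.92, 9.85 and 9.71 in gliospheres. It was at 9.45 and 9.86 in negative spheres and at 9.48, 9.03 and 8.41 in the cell line. The 6 treated arrays were thus the highest of the 14, the 3 gliospheres arrays lay above all cell line arrays, and gliospheres and negative spheres overlapped. The log2 difference over gliospheres was 0.60 in WJT and 0.58 in BMT, each with a standard error of 0.29. Neither reached an unadjusted p of 0.05 by limma. Gliospheres exceeded the cell line by 0.86 log2 (standard error 0.24, 1.81-fold), with an unadjusted p of 0.0040 and an adjusted p = 0.191 by limma. Without cell line replicate 1 the difference was 1.11 and passed (adjusted p = 0.0455 by limma), in a fit in which 274 clusters were higher and 367 lower, against 163 and 68 with all arrays. With replicate numbers as a block it was 0.86 (adjusted p = 0.176), and 1.13 (adjusted p = 0.0451) with the block and without cell line replicate 1, a fit chosen after seeing the data. Without cell line replicate 3 it was 0.58 (adjusted p = 0.274, limma for all of these). Against the whole control group the difference was 0.58 (standard error 0.26), with an unadjusted p of 0.0424 and an adjusted p = 0.437 by limma, and without cell line replicate 3 it was 0.38. ERAP1 and ERAP2 correlated at 0.62 over the 14 arrays.

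NLRC5, the transactivator, stayed close to the low end of the scale. Its signals were 4.45, 4.65 and 4.56 in WJT, 4.49, 4.38 and 4.41 in BMT, 4.45, 4.72 and 4.58 in gliospheres, 4.53 and 4.62 in negative spheres and 4.50, 4.32 and 4.53 in the cell line. It had the narrowest range of the 9 members, 0.40 log2, and every group overlapped with gliospheres. NLRC5 was the 1 member with a mean under a log2 of 5.

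**Figure D3:**
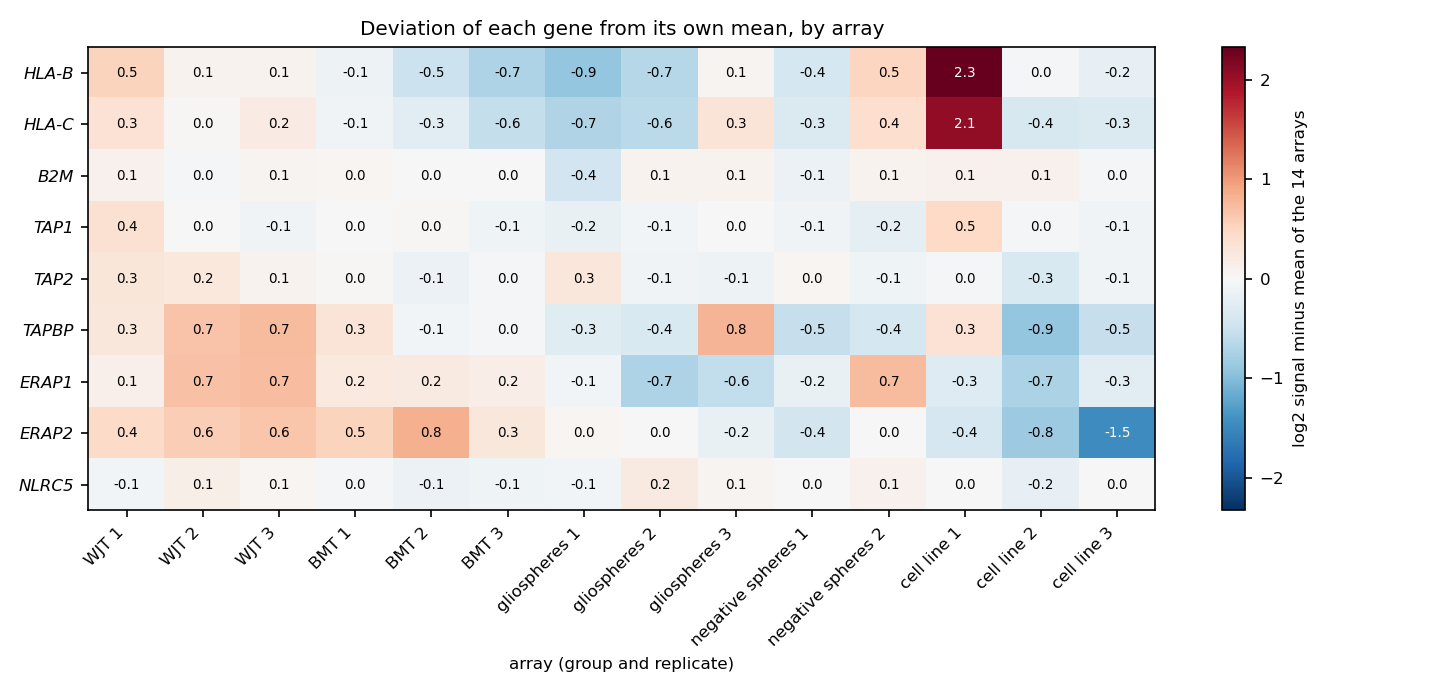
Each cell is the log2 signal of a gene (rows) on an array (columns) minus that gene's mean over the 14 arrays, on a colour scale from blue (below) to red (above). Cell line replicate 1 is far above the mean for HLA-B and HLA-C, ERAP1 and ERAP2 are at or above their means on all treated arrays, and gliospheres replicate 3 departs from replicates 1 and 2 for HLA-B, HLA-C and TAPBP.

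Counted over the members, WJT lay above gliospheres for 8 of 9 genes, with a median log2 difference of 0.51, against -0.01 over all clusters, of which 47.0% were above 0. The groups did not overlap for 3 of the 9 (HLA-B, ERAP1 and ERAP2, all higher), while 7.15% of all clusters were higher without overlap and 8.43% lower. Only ERAP1 reached an unadjusted p of 0.05 or less, as did 2.5% of clusters in the higher and 3.51% in the lower direction, and 0 of 67528 clusters passed after adjustment in either direction (0%). Leaving out 1 array at a time cannot create overlap, so HLA-B, ERAP1 and ERAP2 stayed among the members without overlap by construction. The count ran from 3 to 5, and the median was 0.30 without gliospheres replicate 2 and at most 0.54.

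BMT lay above gliospheres for 7 of 9 genes, with a median log2 difference of 0.05 against 0.03 over all clusters, of which 56.5% were above 0. The count was 4 of 9 without BMT replicate 1, gliospheres replicate 1 or gliospheres replicate 2. The groups did not overlap for 2 of the 9 (ERAP1 and ERAP2, both higher), against 11.2% of all clusters higher and 7.33% lower. No member reached an unadjusted p of 0.05, which 4.45% of clusters did in the higher and 4.02% in the lower direction, and 1 cluster (0.00148%) was higher and 5 (0.0074%) lower after adjustment by limma. The median depended on single gliospheres arrays: it was -0.06 without replicate 1 and 0.33 without replicate 3. ERAP1 and ERAP2 stayed higher without overlap whichever array was left out, since leaving out an array cannot create overlap. HLA-C and TAPBP joined them without gliospheres replicate 3, and of genes lower without overlap there were B2M and NLRC5 without gliospheres replicate 1 and NLRC5 without BMT replicate 1. WJT and BMT share the 3 gliospheres arrays, so the similar values of ERAP1 and ERAP2 in both are not 2 separate observations.

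Set directly against BMT, WJT had the higher mean for 9 of 9 members, with a median log2 difference of 0.25 against -0.04 over all clusters, of which 39.1% were above 0. HLA-B, HLA-C and TAP2 did not overlap (3 of 9, all higher), compared with 4.78% of all clusters higher and 9.22% lower. No member reached an unadjusted p of 0.05 (0.957% of clusters did in the higher direction and 2.02% in the lower), and 0% of clusters passed after adjustment. With 1 array left out, the count of members without overlap ran from 3 to 6. HLA-B, HLA-C and TAP2 were always among them by construction, since leaving out an array cannot create overlap.

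Gliospheres against the control group gave 4 members above 0 and 5 below, with a median log2 difference of -0.08 against -0.07 over all clusters, of which 33.9% were above 0. Of the 9 members, 0 were free of overlap (2.46% of clusters were higher without overlap and 4.05% lower). Without gliospheres replicate 3, HLA-B and HLA-C were lower without overlap against control, against the cell line and against negative spheres, and against control ERAP2 was higher without negative spheres replicate 2, as was TAPBP without cell line replicate 1. ERAP2 alone reached an unadjusted p of 0.05 (5.24% of clusters higher, 5.66% lower), and 0.429% of clusters were higher and 0.139% lower after adjustment. Against the cell line alone, 1 of 9 members did not overlap (ERAP2, higher, against 4.21% of clusters higher and 10.2% lower) and the same gene alone reached an unadjusted p of 0.05 (4.81% higher, 7.06% lower, and 0.241 and 0.101% after adjustment). With replicate numbers as a block, 91 clusters were higher and 28 lower after adjustment, against 163 and 68 without, and 0 members passed either way (limma). Against negative spheres, 1 of 9 did not overlap (TAPBP, higher, against 11.1% of clusters higher and 13.2% lower) and ERAP1 alone reached an unadjusted p of 0.05, in the lower direction (4.04% of clusters, with 4.14% higher, and 0.0948% higher and 0.0503% lower after adjustment). This count also rested on single arrays: set against negative spheres replicate 2 alone, 2 members were higher without overlap (TAP1 and TAPBP) and 4 lower (HLA-B, HLA-C, B2M and ERAP1).

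Cell line replicate 1 weighed heavily on the heavy chains in these comparisons. The log2 difference of gliospheres over the cell line was -1.20 for HLA-B and -0.79 for HLA-C with all arrays, and -0.38 and 0.01 without that array.

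**Figure D4:**
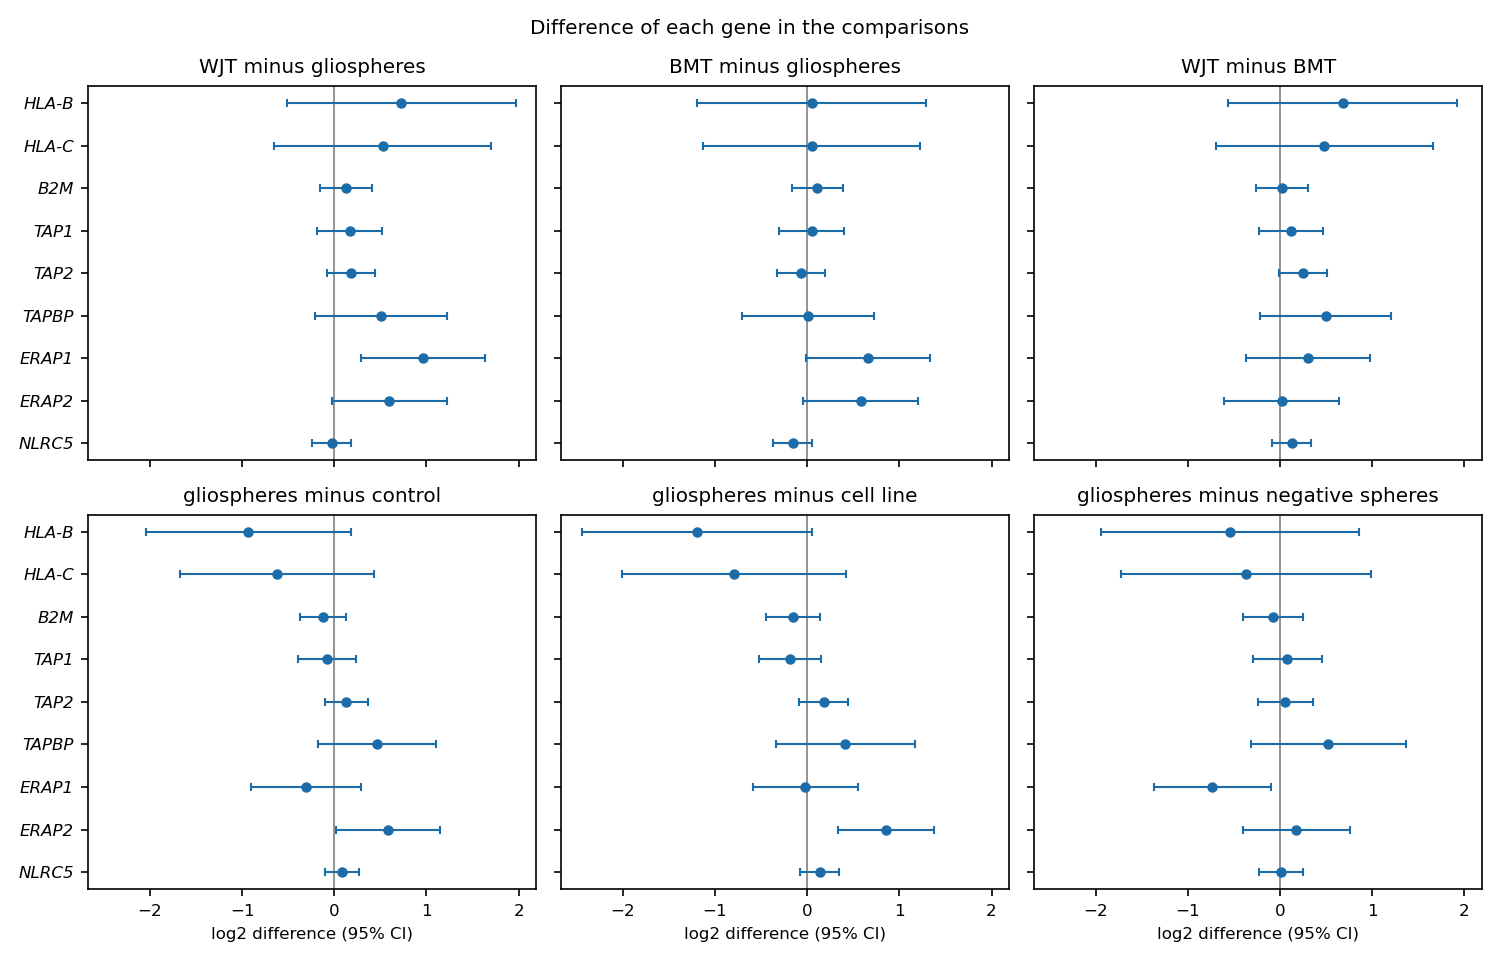
Log2 difference (horizontal axis) of each of the 9 genes in the 6 comparisons, with 95% confidence intervals from limma. The intervals of HLA-B and HLA-C are the widest, and only those of ERAP1 (WJT minus gliospheres, gliospheres minus negative spheres) and ERAP2 (gliospheres minus control, gliospheres minus cell line) leave out 0.

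The genes that work with the members were read from 7 lists and gave 0 adjusted calls in every list and comparison, so counts at an unadjusted p of 0.05 or less are given, beside the shares of all clusters above. Among 8 other class I and class I-like heavy chains, 6 were above 0 in WJT over gliospheres and 5 in BMT (medians 0.18 and 0.05), and none reached that p. MICA, a stress-induced ligand of the NKG2D receptor, was 0.54 log2 higher in gliospheres than in control (standard error 0.13, adjusted p = 0.0998 by limma). It read 7.05, 7.13 and 6.73 in gliospheres, 6.44 and 6.37 in negative spheres and 6.68, 6.26 and 6.41 in the cell line, so the groups did not overlap.

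Peptide loading and quality control factors of the endoplasmic reticulum had 2 of 8 higher and 1 lower at that p in WJT over gliospheres and 0 in BMT. PDIA3, the disulfide isomerase of the loading complex, read 14.83, 15.17 and 14.99 in WJT and 13.88, 13.71 and 14.14 in gliospheres, and exceeded them by 1.09 log2 with a standard error of 0.38 (adjusted p = 0.617 by limma). CANX, the chaperone calnexin that holds free heavy chains, differed by 0.53 (adjusted p = 0.698), and TPP2, a cytosolic peptidase, by -0.65 (adjusted p = 0.749, limma for both).

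The immunoproteasome and PA28 list, which holds the interferon-inducible proteasome subunits, their constitutive counterparts and the PA28 activators, had 2 of 9 lower at that p in WJT and the same 2 in BMT. PSMB5, a constitutive catalytic subunit, read 9.68, 9.50 and 9.04 in WJT, 9.16, 9.01 and 8.77 in BMT, and 9.85, 11.08 and 10.25 in gliospheres. Its log2 difference was -0.99 in WJT (adjusted p = 0.66) and -1.42 in BMT (adjusted p = 0.303). PSME3, the PA28 gamma subunit, which works in the nucleus, differed by -0.83 in WJT and -0.89 in BMT (adjusted p = 0.668 and 0.457, limma throughout). The inducible PSMB8, PSMB9 and PSMB10 were not among those that reached an unadjusted p of 0.05 in either treatment. PSMB9, which shares its start region with TAP1, was highest on cell line replicate 3 (6.14), with 5.35 on replicate 1 and 5.67 on replicate 2, whereas TAP1 was highest on replicate 1.

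Of 13 regulators of class I transcription, 8 had a lower mean in WJT than in gliospheres and 10 in BMT (medians -0.08 and -0.16). At that p, 2 were higher and 1 lower in each treatment. IRF1, the interferon-induced factor that binds the response element, read 5.19, 5.30 and 5.31 in WJT, 5.19, 5.29 and 4.97 in BMT, and 4.61, 4.55 and 4.54 in gliospheres, so that neither treatment overlapped with gliospheres. The log2 difference was 0.70 in WJT (standard error 0.10, adjusted p = 0.104) and 0.58 in BMT (standard error 0.10, adjusted p = 0.129). NFKB1, which encodes the p50 subunit of NF-κB, read 7.67, 8.13 and 8.09 in WJT, 7.74, 7.57 and 7.49 in BMT, and 7.19, 7.15 and 6.91 in gliospheres, with differences of 0.88 and 0.51 (adjusted p = 0.28 and 0.517). NFYC, a subunit of the factor that binds CCAAT, differed by -0.30 and -0.36 (adjusted p = 0.762 and 0.461, limma for all of these). RELA, the partner of NFKB1, was highest on cell line replicate 1 (8.23, next 7.50).

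Interferon receptors and signaling genes had 1 of 12 higher at that p in each treatment, IFNAR2, a chain of the type I interferon receptor (0.28 in WJT with adjusted p = 0.805, and 0.36 in BMT with adjusted p = 0.451). Interferon-stimulated genes had 3 of 21 higher in WJT (IFIH1 0.46, GBP4 0.54 and OAS2 0.44 log2) and 2 in BMT (BST2 0.20 and IFI27 0.19), with list medians of 0.10 and 0.05. IFIH1, a sensor of viral RNA, read 5.57, 5.74 and 5.71 in WJT and 5.06, 5.16 and 5.43 in gliospheres. GBP4, BST2 and IFI27 are near the low end of the scale, and 6 of the 21 genes in WJT and 6 in gliospheres stayed below 4 on all arrays of the group.

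MHC class II genes, which present peptides from outside the cell, lay below gliospheres in both treatments, where the means of HLA-B and HLA-C did not. All 7 were lower in mean in WJT and in BMT than in gliospheres, with medians of -0.83 and -0.89 log2, and 6 of 7 reached an unadjusted p of 0.05 in each. HLA-DRA, the alpha chain of HLA-DR, lay between 12.41 and 13.96 in WJT, between 12.11 and 13.12 in BMT and between 15.80 and 15.99 in gliospheres. CIITA, the class II counterpart of NLRC5, read 4.72, 4.78 and 5.09 in WJT, 4.82, 4.61 and 4.55 in BMT and 5.15, 5.53 and 5.31 in gliospheres. Both treatments lay below gliospheres on every array for these genes, with adjusted p = 0.544 and 0.294 for HLA-DRA and 0.63 and 0.29 for CIITA in WJT and BMT (limma). Against control, gliospheres had the higher mean for 7 of 7 genes (median 0.67), whereas HLA-B and HLA-C had the lower mean.

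**Figure D5:**
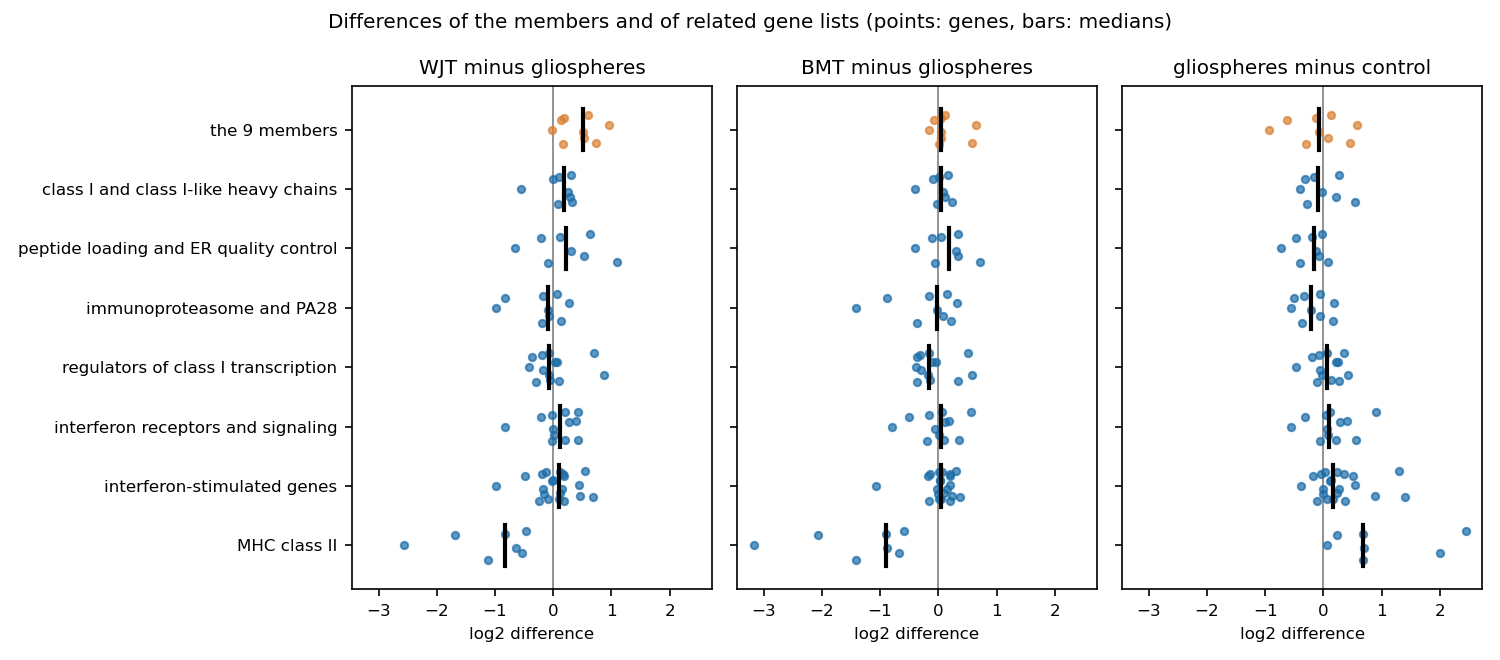
Log2 differences (horizontal axis) of the 9 members and of 7 lists of related genes (rows) for WJT and BMT over gliospheres and gliospheres over control. Points are genes and black bars medians. The members have a median of 0.51 in WJT and 0.05 in BMT, and the class II genes lie at -0.83 and -0.89.

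Genes typical of mesenchymal stem cells, the source of the CM, and of fibroblasts were read as well. All 7 measured markers had a higher mean in WJT than in gliospheres (2 at an unadjusted p of 0.05, COL1A1 and DCN) and 5 of 7 in BMT (1, COL1A1), and the defining marker THY1 stayed below 4 on all arrays. The summed signal of the list lay on the log2 scale between 18.41 and 18.55 in WJT, between 18.26 and 18.33 in BMT, between 16.96 and 18.30 in gliospheres, between 16.93 and 17.81 in negative spheres and between 15.60 and 16.96 in the cell line. It was carried by NT5E, the gene of CD73, which made up between 98.5 and 99.9% of it on every array, so the sum says nothing of the other markers. Without NT5E the highest sums were those of gliospheres replicate 3 (10.88) and cell line replicate 1 (10.11), against 9.12 to 9.63 in WJT and 8.78 to 8.92 in BMT. Their part in the levels of the members was not tested.

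Over the 14 arrays, the 10 genes whose level most resembled the mean standardised level of the 9 members were TMEM214, TMEM63B, DZIP1, ATP8B2, P3H1, B3GNT9, TYK2, PAQR7, DAB2 and CLSTN1, with correlations between 0.90 and 0.93 among 9211 genes of at least a log2 mean of 5. This member mean, in standard deviations, was 0.68, 0.68 and 0.57 on the WJT arrays, 0.19, -0.14 and -0.29 in BMT, -0.65, -0.25 and 0.13 in gliospheres, -0.45 and 0.18 in negative spheres and 0.90, -0.93 and -0.62 in the cell line. The WJT arrays and cell line replicate 1 were the highest. The correlations share the same 5 groups and the same arrays, so they describe likeness across them and nothing within a group.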

How the data were processed

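What the authors deposited are log2 signals per transcript cluster of the Affymetrix GeneChip Human Transcriptome Array 2.0, from the Transcriptome Analysis Console. The console's SST-RMA step corrects background, quantile-normalizes the arrays and summarises probes, which ties each value to the other arrays. The array annotation is in hg19. Of 70523 features, 2995 that are no transcript cluster were left out, and gene symbols came from the annotation (23781 clusters with 1 symbol, 1543 with several, 42204 with none). Arrays give no read depth, so their number limits the precision.

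Every cluster entered limma (version 3.58.1, R 4.3.3) with empirical Bayes shrinkage. A fit of 4 groups (WJT, BMT, gliospheres, control; prior degrees of freedom 1.95) gave the treatment and control comparisons, and a fit of 5 groups (1.98) those with the cell line and negative spheres apart. Adjustment was by Benjamini-Hochberg over all 67528 clusters. The fit was tested on simulated data. A test is printed for a member only where its unadjusted p was 0.05 or less, or where leaving out an array moved it, and for up to 4 genes of a list in order of p. The members and lists were chosen with earlier results of these data known. Alternatives were other groups or only the compared arrays in the fit, an intensity trend with robust prior, quantile normalization, centring on the median, weights per array, a block for replicate numbers, a mean log2 of at least 5, clusters with 1 symbol, the mean of a gene's clusters, a filter on fold and unadjusted p, and arrays left out. Nothing in the labels ties the replicate numbers of different groups. Same-numbered gliospheres and cell line arrays deviated together from their group means (3 of 3 correlations above 0.1, between 0.28 and 0.40), so the blocked value is given beside that comparison, and in no other comparison was every pair above 0.1. Python 3.11.15 (numpy 2.4.6; pandas 2.3.3; matplotlib 3.10.9) made tables and plots. Promoter windows are from RefSeq (GRCh38.p14).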

Additional observations from a re-analysis of the deposited data

Results flagged for a closer look

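TAP1 on cell line replicate 1 was the 1 member value in the control group of 5 arrays that Dixon's ratio set apart. It stood at 5.97, which is 0.50 log2 above the next of these arrays, and the gap made up 0.733 of the group's range, over the critical value of 0.71. The 9 members were tested in this way, and chance alone flags about 1 in 20 groups.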

How the results depend on the processing

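The number of members that passed was 0 in all 6 comparisons under every alternative run, except that without cell line replicate 1 the count was 1 for gliospheres against the cell line (ERAP2, 1.11 log2, adjusted p = 0.0455), so that over arrays left out in turn it ran from 0 to 1 there, and that it was also 1 with cell line replicate 1 left out and a replicate block (1.13, adjusted p = 0.0451). The 4 member differences printed with a test kept their direction under every alternative run, and the adjusted p of ERAP1 in WJT over gliospheres was never below 0.134 (array weights). The median member difference of gliospheres over control, -0.08, was 0.03 without cell line replicate 1. That over the cell line, -0.02, was 0.15 with quantile normalization, and that over negative spheres, 0.01, was then -0.10. Among the 6 comparisons, replicate numbers paired only gliospheres with cell line arrays by the correlation of their deviations. Every same-numbered pair was also above 0.1 for BMT with the cell line (3 of 3, between 0.16 and 0.25). So was every pair of WJT with negative spheres (2 of 2, 0.26 and 0.27), and these groups were not compared. In all, 11 of 26 same-numbered pairs correlated above 0.1. With a replicate block 0 members passed in each comparison, and gliospheres had 91 higher and 28 lower clusters than the cell line, against 163 and 68 without the block. The fits chosen after seeing the data gave 157 and 155 with the block and cell line replicate 1 left out, and 0 and 0 with the block and only these arrays. The block changed no other call of a member. Counts over all clusters moved more. WJT over gliospheres gave 92 higher and 82 lower clusters with array weights, against 0 and 0, and BMT gave 14 and 101 without gliospheres replicate 1, against 1 and 5. Gliospheres over control gave 24 and 0 with only the arrays compared, against 290 and 94, and gliospheres over negative spheres 0 and 0 with only the groups without CM, against 64 and 34. The causes were not tested. The number of arrays limits the precision.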
